A study of Rattus norvegicus with 12 samples.

Results

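Esophageal tissue of NMBA-treated rats of week 15, the middle of 3 stages of tumor development in the study, was compared with tissue of control rats. The comparison takes the 3 arrays titled NMBA wk15 and the 3 arrays titled Control, 6 of the 12 arrays of the series, and all 31042 probe sets other than array controls. NMBA (N-nitrosomethylbenzylamine) is a nitrosamine carcinogen used to induce squamous cell tumors in rats. After 2 weeks of acclimation, rats kept 3 to a cage were injected under the skin with 0.2 ml of NMBA at 0.3 mg per kg, or of its solvent, 1 part dimethyl sulfoxide (DMSO) to 4 parts water. Injections were given 3 times per week for 5 weeks, so week 15 lies after dosing had ended. Before RNA extraction, part of the esophagus was freed of its submucosa and muscle coat. The labels used here give neither the week at which control rats were sampled nor the strain, sex or age of any rat. Because they link no array to a cage or to its own animal, every p-value reflects only the spread between these samples, which may be technical. Every value is a log2 signal, on which a difference of 1 is a doubling; errors are the SD of 3 arrays or the standard error (SE) of a difference.

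The rat esophagus is lined by a keratinized stratified squamous epithelium. Basal keratinocytes divide on a basement membrane, and their daughters move outward, bind each other through desmosomes, secrete barrier lipids and end as a cornified layer. NMBA becomes mutagenic when cytochrome P450 enzymes of the epithelium oxidize it to products that methylate and benzylate DNA. Beneath the epithelium lie fibroblasts, vessels and nerves, and the muscle coat of the rat esophagus is largely striated muscle.

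Both epithelium and muscle were bright on every array. Krt5 and Krt14, the keratins of basal cells, lay between 13.17 and 13.97, and Krt13 and Krt4, those of the upper layers, between 13.65 and 14.55. Acta1, skeletal muscle actin, lay between 14.03 and 14.71, although the muscle coat had been stripped. Its difference between the groups was -0.24 (SE 0.13), with a limma adjusted p of 0.277. Except in week 15 replicate 3, Acta1 equaled the highest signal of its array. Whether the top of the scale limits this difference was not tested. Markers of thyroid (Tg), stomach (Gkn1), airway (Scgb1a1, Foxj1) and fat (Adipoq, Plin1) stayed between 3.69 and 5.42 on these 6 arrays. Another stomach marker, Atp4a, lay between 5.6 and 5.82. In bulk tissue, fewer cells of a type and less RNA per cell cannot be told apart.

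The skeletal muscle signal was lower at week 15 and uneven between its arrays. The muscle score, the mean log2 signal of 47 sarcomere genes, was 11.16, 11.62 and 11.51 in control replicates 1 to 3 and 10.47, 11.16 and 9.60 in week 15 replicates 1 to 3. Week 15 replicate 2 thus sat at the level of control replicate 1, and replicate 3 lay lowest of all 12 arrays. The difference was -1.02 (SE 0.47), with an exact two-sided permutation p of 0.1, the smallest that 3 against 3 arrays can give. It was -1.40 without week 15 replicate 2 and -0.62 without replicate 3. A 3′ to 5′ signal difference of GAPDH, a measure of RNA degradation, was 0.40 ± 0.16 in controls and 0.40 ± 0.19 at week 15 (SD, n = 3). Several readings of the muscle signal stand beside the results below: the difference in a fit with the score as covariate, the order of the week 15 arrays, and the difference between week 15 replicate 2 and control replicate 1, a pair of single arrays with equal muscle scores and no replicate check. That pair was chosen after the scores were seen. Of the 47 sarcomere genes on which it matches, 25 were lower and 22 higher in week 15 replicate 2. Other lists leaned lower in that array. There 25 of 30 excitation-contraction genes were lower and 5 higher, and 33 of 39 muscle energy genes were lower and 6 higher. Respiratory chain genes were lower in 53 of 56 cases and higher in 3. The medians of these 3 lists were -0.21, -0.11 and -0.14, against -0.05 over all genes. Because the score is the mean of the 47 sarcomere genes, the covariate removes their mean difference by construction.

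**Figure D1:**
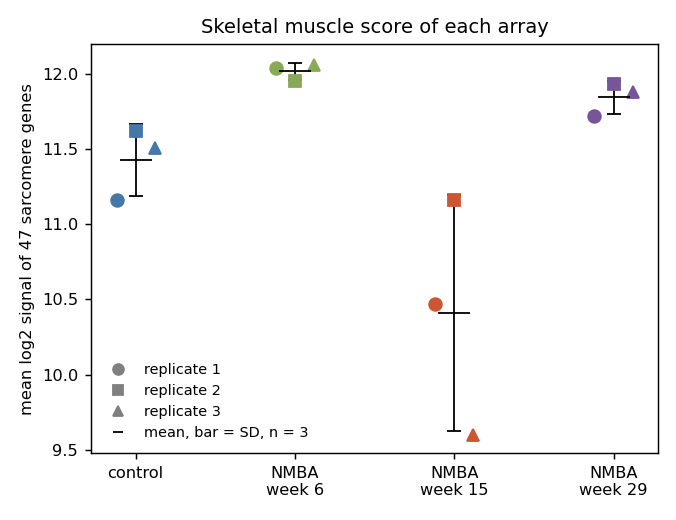
Skeletal muscle score of each of the 12 arrays (y axis, mean log2 signal of 47 sarcomere genes) by group, with replicate numbers as symbols and the mean and SD of 3 arrays as bars. The week 15 arrays range from 9.60 to 11.16, while the control arrays range from 11.16 to 11.62.

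Of 14217 genes, 219 were higher at week 15 (1.54%) and 1192 were lower (8.38%), by limma at an adjusted p under 0.05 in a fit of all 12 arrays. Over probe sets, 528 were higher (1.7%) and 1927 lower (6.21%). Calls with groups that did not overlap numbered 1393 genes, 9.8% of all 14217, of which 215 were higher (1.51% of all) and 1178 lower (8.29% of all). The median difference over genes was 0.03. Of the 191 called genes that are named here, 55 had another probe set on the array; in 29 of these at least 1 other probe set differed by less than 0.5 as much or with the other sign, and in 10 it was at 0 or of the other sign. The fit borrows the spread of the week 6 and week 29 arrays, whose median SD over genes was 0.096 and 0.129, below the 0.164 of week 15 (0.121 in controls). Fitted to the 6 arrays alone, limma called 3 genes higher (0.0211%) and 73 lower (0.513%), and with a weight estimated for each group it called 128 higher (0.9%) and 924 lower (6.5%). Leaving out 1 array moved the count of 2455 probe sets to between 881, without control replicate 2, and 3057, without week 15 replicate 2; it was 927 without control replicate 3 and 1015 when week 15 replicate 3 was dropped. When the fit took the score as covariate, no probe set was called, the lowest adjusted p being 0.0837, while 4540 had an unadjusted p under 0.05.

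The lower genes followed the muscle score across the week 15 arrays more often than genes in general. Of the 1192 lower genes, 621 (52.1%) were highest in replicate 2 and lowest in replicate 3, against 2482 of all 14217 genes (17.5%). Of the 219 higher genes, 72 (32.9%) ran in the opposite order, against 23% of all genes. With the covariate, 771 of the lower genes and 185 of the higher genes kept at least 0.5 of their difference.

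Genes of innate epithelial defense gave the largest rises. Of 24 measured alarmins and antimicrobial genes, 5 were higher and none lower (1.54% of all genes were higher), with a list median of 0.28. S100a9 and S100a8 encode the subunits of calprotectin, a metal-binding protein of neutrophils and stressed keratinocytes. S100a9 had signals of 4.87, 5.09 and 4.77 in the controls and 9.01, 7.31 and 6.59 at week 15. Every week 15 array lay above every control, and replicate 1 was highest. The difference was 2.73 (SE 0.43), or 6.63-fold, with a limma adjusted p of 0.00595 over all 12 arrays and 0.0604 over the 6 arrays alone. S100a8 measured 3.80, 3.89 and 3.59 in the controls against 6.20, 5.6 and 4.35, a difference of 1.62 (SE 0.32; adjusted p 0.0152). Both genes had the same order of week 15 arrays, with replicate 1 first and replicate 3 last, which is not the order of the muscle score.

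Slpi, a secreted inhibitor of neutrophil elastase, was bright in every sample. Its signals were 11.48, 10.74 and 10.57 in the controls and 12.04, 12.79 and 12.61 at week 15, a difference of 1.55 (SE 0.26; adjusted p 0.00773). Defb4, a beta-defensin, measured 8.99, 8.47 and 9.06 against 9.46, 10.81 and 10.85 (difference 1.54, SE 0.30; adjusted p 0.0134). In both, week 15 replicates 2 and 3 were close together and replicate 1 was nearer to the controls. Wfdc5, a whey acidic protein domain gene related to Slpi, rose by 0.86 (SE 0.23; adjusted p 0.0387). Bpifa5, of the family of bactericidal/permeability-increasing proteins, measured 8.62, 8.16 and 8.53 against 9.11, 9.91 and 10.08 (difference 1.26, SE 0.21; adjusted p 0.00805). In week 15 replicate 2, with the muscle score of control replicate 1, S100a9 was higher than in that control by 2.44, S100a8 by 1.80, Slpi by 1.31, Defb4 by 1.82, Wfdc5 by 1.30 and Bpifa5 by 1.29. With the muscle covariate the differences were 3.26, 2.41, 1.5, 1.39, 1.04 and 1.05 in the same order, none of them called. Without control replicate 2, or without control replicate 3, 3 of the 24 genes were called.

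No neutrophil gene passed the test, in a short and dim list. All 10 measured members had differences above 0, between 0.02 and 0.48. None was called by limma, against 9.92% of all genes in either direction, and 2 had an unadjusted p under 0.05. With 10 genes, no call is near that share. The mean signal of the list was 4.41 to 4.51 in the controls and 4.62 to 4.73 at week 15. Csf3r, the receptor for the neutrophil growth factor G-CSF, lay between 3.36 and 3.67 in the controls and at 4.44, 3.5 and 3.5 at week 15, so that only replicate 1, the array with the highest S100a9, stood above the controls. Il1b, encoding interleukin 1 beta, measured 8.08 in that replicate and 6.35 and 6.26 in the others, against 5.86 to 6.41 in the controls (difference 0.75, SE 0.36; adjusted p 0.221). The part of neutrophils in the S100a8 and S100a9 signal was not tested.

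A few genes of the outer, differentiating layers rose, while most members of these lists did not pass the test. In the cornified envelope list, 2 of 27 genes were higher, 25 were not called and none was lower (1.54% of all genes were higher), with a median of 0.45 and 23 differences above 0. Sprr2d, a small proline-rich protein cross-linked into the envelope, measured 6.60, 5.96 and 5.72 in the controls and 6.95, 8.20 and 7.29 at week 15 (difference 1.39, SE 0.30; adjusted p 0.0184). The groups did not overlap, and week 15 replicate 2 was highest. Asprv1, the protease that processes filaggrin, rose by 1.21 (SE 0.34; adjusted p 0.0468), with week 15 replicate 1 inside the control range. Desmosome genes were higher in 2 of 11 cases, with 9 not called and none lower. Dsc1, a desmosomal cadherin of the uppermost cells, measured 6.93, 6.09 and 6.46 against 7.19, 8.06 and 8.10 (difference 1.29, SE 0.30; adjusted p 0.0228). Cdsn, corneodesmosin, which seals cornified cells together, measured 6.88, 6.52 and 6.68 against 7.42, 8.29 and 8.10 (difference 1.25, SE 0.22; adjusted p 0.0088). Their smallest gap to the controls was again in replicate 1. With the muscle covariate Sprr2d, Asprv1, Dsc1 and Cdsn differed by 1.71, 1.24, 1.13 and 1.28, none of them called. The counts of these lists were small and moved with single arrays: the cornified envelope count was 0 without control replicate 3, 1 without control replicate 2 and without replicate 2 or 3 of week 15, 4 without control replicate 1 and 7 without week 15 replicate 1, and the desmosome count was 1 without either of control replicates 2 and 3 or without week 15 replicate 3.

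**Figure D2:**
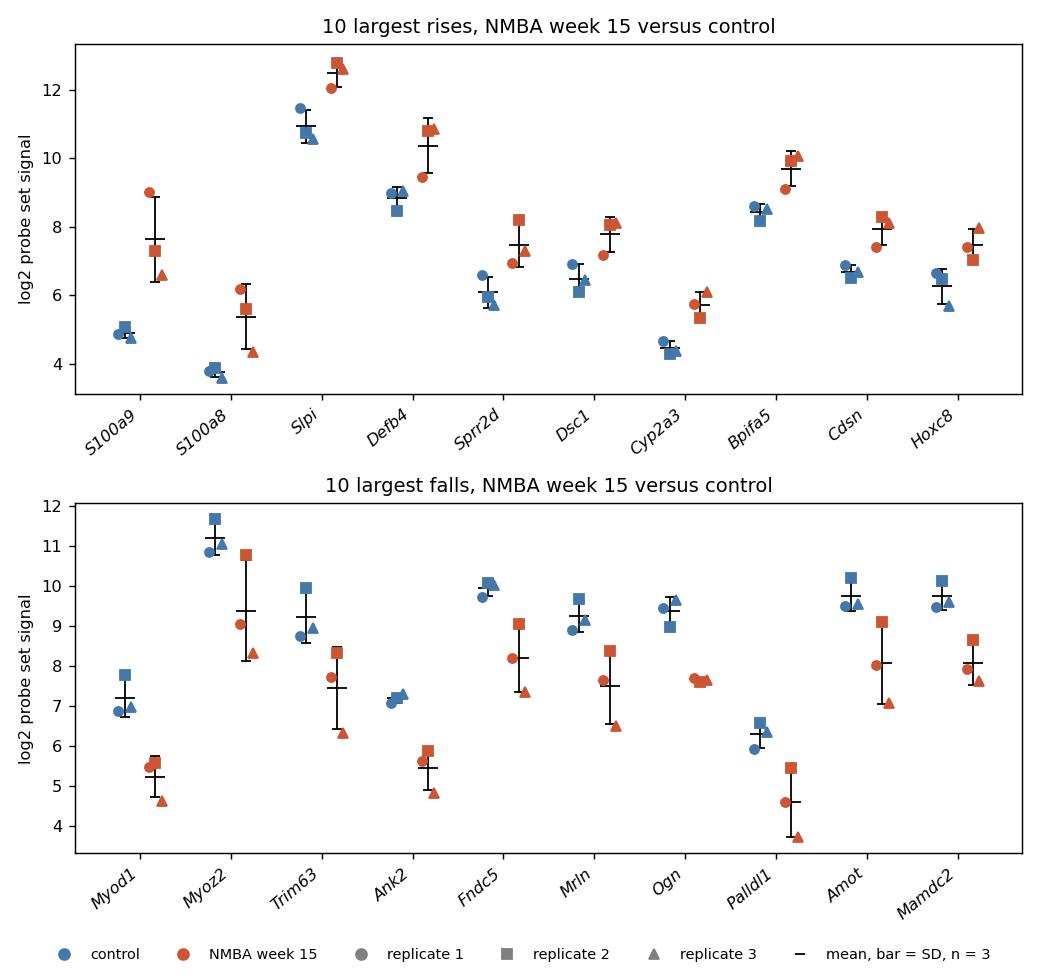
Log2 signal in each control and week 15 array for the 10 largest rises (upper panel) and the 10 largest falls (lower panel), with replicate numbers as symbols and the mean and SD of 3 arrays as bars. The 2 groups do not overlap for any of the 20 genes, which the choice of genes required, and Ogn spans only 7.59 to 7.69 at week 15.

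Regulators, lipid enzymes and protease inhibitors of the same layers had members that rose, and none fell (1.54% of all genes were higher). Among squamous transcription factors 4 of 26 were higher, with a median of 0.34. Ehf, an ETS factor of epithelia, rose by 0.84 (SE 0.21; adjusted p 0.0312), and Tfap2a, a regulator of keratinocyte genes, by 0.73 (SE 0.19; adjusted p 0.0352). Cebpa and Dlx3, which drive late differentiation, rose by 0.58 (SE 0.13; adjusted p 0.0201) and 0.43 (SE 0.08; adjusted p 0.0113). Dlx3 was even within groups, at 7.73, 7.80 and 7.87 in the controls and 8.22, 8.31 and 8.15 at week 15. Of 17 barrier lipid genes 4 were higher, with a median of 0.49. Elovl6, a fatty acid elongase, measured 8.11, 7.83 and 8.14 against 8.63, 8.87 and 9.14 (difference 0.86, SE 0.20; adjusted p 0.0249). Slc27a4, a fatty acid transporter needed for the skin barrier, rose by 0.49 (SE 0.10; adjusted p 0.0157), Pnpla1, which makes acylceramides, by 0.37 (SE 0.09; adjusted p 0.0364), and Alox12, a 12-lipoxygenase, by 0.70 (SE 0.19; adjusted p 0.0408).

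Epithelial proteases and their inhibitors were higher in 3 of 19 cases, with a median of 0.47. Spink5, the inhibitor that restrains the kallikreins which shed cornified cells, measured 10.99, 11.03 and 10.86 in the controls and 11.34, 11.92 and 12.20 at week 15 (difference 0.86, SE 0.20; adjusted p 0.0258). Prss8, a membrane-anchored serine protease, rose by 0.64 (SE 0.17; adjusted p 0.0429) and Klk6, a kallikrein near the dim end of the scale, by 0.37 (SE 0.09; adjusted p 0.0345). Junction genes were higher in 2 of 21 cases: Cldn8, a tight junction claudin, by 0.74 (SE 0.20; adjusted p 0.042) and Ctnnd1, p120 catenin, by 0.43 (SE 0.10; adjusted p 0.0287). None of the genes in these lists was called over the 6 arrays alone or with the muscle covariate. With that covariate Ehf, Tfap2a, Cebpa and Dlx3 differed by 0.52, 0.28, 0.56 and 0.53. Elovl6, Slc27a4, Pnpla1 and Alox12 differed by 0.58, 0.47, 0.45 and 0.21. Values for Spink5, Prss8, Klk6, Cldn8 and Ctnnd1 were 0.63, 0.47, 0.41, 0.40 and 0.35. In the pair of arrays with equal muscle scores, 5896 of all 14217 genes were higher at week 15. Among the lists, 15 of 17 barrier lipid, 18 of 19 protease and inhibitor and 21 of 26 transcription factor genes were higher. So were 24 of 27 envelope, 15 of 21 junction and 8 of 11 desmosome genes. Without control replicate 2, without control replicate 3 or without week 15 replicate 3, the barrier lipid count was 0, 1 and 1, the protease count 1, 0 and 0, the transcription factor count 2, 1 and 1, and the junction count 0 each time. Without week 15 replicate 1 the barrier lipid and protease counts were both 7 and the junction count 0, without control replicate 1 the transcription factor count was 2 and the protease count 1, and without week 15 replicate 2 the protease count was 0.

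Few keratins and basal genes were called, in counts near the share of all genes called in either direction, 9.92%. Of 20 basal and hemidesmosome genes 1 was called, and 3 without week 15 replicate 2. Of 10 suprabasal and stress keratins none was called by limma, and 0 had an unadjusted p under 0.05. The keratin count was 1 without week 15 replicate 1. Krt4 measured 13.92, 13.65 and 13.77 in the controls and 13.99, 14.20 and 14.14 at week 15 (difference 0.33, SE 0.17; adjusted p 0.257), and Krt13 differed by 0.29 (SE 0.19; adjusted p 0.351). Krt78, a keratin of the esophagus, differed by 0.88 (SE 0.43; adjusted p 0.23) and Krt10 by -0.44 (SE 0.54; adjusted p 0.639). Basal Krt5 and Krt14 differed by 0.29 (SE 0.16; adjusted p 0.284) and 0.14 (SE 0.23; adjusted p 0.744). Of 20 basal and hemidesmosome genes, Dst, encoding dystonin, fell by 0.62 (SE 0.11; adjusted p 0.0088), from 10.84, 11.07 and 11.05 to 10.49, 10.26 and 10.35. Dst is also expressed in muscle and nerve, and other probe sets of the gene differed by -0.39 to 0.80. Pitx1, a homeobox factor of oral and esophageal epithelium, did not overlap between groups but missed the threshold (0.86, SE 0.26; adjusted p 0.0643).

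Among the remaining large rises was Hoxc8, a homeobox gene of positional identity, at 6.65, 6.47 and 5.69 in the controls and 7.40, 7.02 and 7.98 at week 15 (difference 1.20, SE 0.32; adjusted p 0.0422). Its difference was 0.44 with the muscle covariate and 0.37 in the pair of arrays with equal muscle scores. The other genes of the 20 largest rises differed by 1.01 to 1.18. They were Tm4sf4, Kcnh1 (a voltage-gated potassium channel), Selenbp1 (selenium-binding protein), Akr1c13 (an aldo-keto reductase), Slc7a5 (a transporter of large amino acids), Ces1c (a carboxylesterase), Slc15a1 (a peptide transporter), Inhca, Hsd17b2 (which inactivates sex steroids) and Pla2g4e (a phospholipase). In the order listed, they differed by 1.53, 0.94, 0.55, 0.76, 0.48, 0.61, 1.09, 0.64, 0.55 and 0.48 with the muscle covariate, none of them called. The pair with equal muscle scores gave 1.68, 0.64, 0.43, 0.65, 0.58, 0.50, 1.35, 0.38, 0.45 and 0.89. Other probe sets of Ces1c and Inhca differed by 0.13 and 0.19. Of these 20 rises, 17 were called with a weight for each group, 12 without week 15 replicate 3, 11 without control replicate 2, and 2, Cyp2a3 and Kcnh1, over the 6 arrays alone. Kcnh1 measured 6.83, 6.29 and 6.55 against 8.0, 7.47 and 7.66 (adjusted p 0.00577, and 0.0488 over the 6 arrays).

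Cytochrome P450 genes were higher in 4 of 41 cases and lower in 1 (1.54% and 8.38% of all genes). The 5 calls were 3 without week 15 replicate 3 or control replicate 3, and 1 over the 6 arrays alone. Cyp2a3 belongs to the subfamily that activates nitrosamines in the respiratory and upper digestive tract. It measured 4.68, 4.29 and 4.39 in the controls and 5.75, 5.34 and 6.09 at week 15. The groups were well apart, with a difference of 1.28 (SE 0.17), an adjusted p of 0.00364 and an adjusted p of 0.0478 over the 6 arrays alone. Cyp1a1, the classic target of the aryl hydrocarbon receptor, measured 6.00, 6.08 and 5.97 against 6.75, 6.74 and 7.44 (difference 0.96, SE 0.20; adjusted p 0.0176). Cyp2s1, an epithelial P450, rose by 0.74 (SE 0.21; adjusted p 0.0494) and Cyp39a1, an oxysterol hydroxylase, by 0.48 (SE 0.12; adjusted p 0.0372). Cyp2s1, Cyp39a1 and Cyp27a1 differed by 0.44, 0.37 and -0.43 with the muscle covariate. Cyp27a1, a mitochondrial sterol hydroxylase, fell by 0.79 (SE 0.14; adjusted p 0.00995). Cyp2a3 and Cyp1a1 were highest in the array with the least muscle signal. Their differences were 0.77 and 0.47 with the muscle covariate, and 0.66 and 0.73 in the pair of arrays with equal muscle scores.

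Phase 2 and NRF2 target genes gave few calls, with 2 of 55 higher and 2 lower (1.54% and 8.38% of all genes). The 4 calls were 2 without control replicate 2 or control replicate 3 and 7 without week 15 replicate 2. Aldh1a1, a retinaldehyde dehydrogenase among the brighter genes, measured 12.27, 12.06 and 11.88 against 12.61, 12.62 and 13.06 (difference 0.70, SE 0.20; adjusted p 0.0488). Hmox1, heme oxygenase 1, rose by 0.66 (SE 0.16; adjusted p 0.0274), highest in replicate 1. Gstm5, a glutathione transferase, fell by 0.96 (SE 0.15; adjusted p 0.00568), and Sult1a1, a sulfotransferase, by 0.72 (SE 0.13; adjusted p 0.00995). Under the muscle covariate these genes differed by 0.31 (Aldh1a1), 0.73 (Hmox1), -0.52 (Gstm5) and -0.81 (Sult1a1). DNA repair genes, which include those that reverse alkylation, had no call by limma among 38 (11 at an unadjusted p under 0.05), and 3 without week 15 replicate 2. Alkbh3, an alkylation repair dioxygenase, differed by -0.45 (SE 0.14; adjusted p 0.0654), Chek2, a DNA damage kinase, by 0.48 (SE 0.26; adjusted p 0.275), and H2ax, the damage-marking histone, by 0.40 (SE 0.16; adjusted p 0.146).

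Cell cycle lists gave few calls. None of 39 DNA replication genes and none of 48 mitosis genes passed the limma test (9.92% of all genes were called in either direction), with 5 and 2 at an unadjusted p under 0.05; without week 15 replicate 2 the replication count was 2. The mitosis median was 0.22, with 46 of 48 differences above 0. Mki67, the proliferation marker, measured 9.68, 9.68 and 9.35 in the controls and 9.60, 9.33 and 10.17 at week 15 (difference 0.13, SE 0.28; adjusted p 0.801). Only replicate 3, with the lowest muscle score, stood above the controls. The mitosis score was also highest in replicate 3, at 8.02, 7.96 and 7.89 in the controls and 8.03, 7.94 and 8.54 at week 15. The list median was -0.22 with the muscle covariate and -0.10 in the pair with equal muscle scores. Tyms, thymidylate synthase, differed by 0.45 (SE 0.14; adjusted p 0.0725), and the mitotic genes Ttk, Nusap1 and Nuf2 by 0.37, 0.36 and 0.36. Ccnd1, cyclin D1, differed by 0.06 (SE 0.16; adjusted p 0.851).

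Of 24 G1 genes 3 fell and none rose (8.38% and 1.54% of all genes). The 3 calls were 2 without control replicate 2, control replicate 3 or replicate 1 or 3 of week 15. They were 4 without week 15 replicate 2 and 1 over the 6 arrays alone. Cdkn1c, the CDK inhibitor p57, measured 7.46, 7.63 and 8.01 in the controls and 6.49, 6.25 and 5.77 at week 15. The difference was -1.53 (SE 0.19), with an adjusted p of 0.00275, and 0.0426 over the 6 arrays alone. Cdkn2a, which encodes p16 and ARF, measured 6.39, 6.04 and 6.58 against 5.28, 5.57 and 5.73 (difference -0.81, SE 0.15; adjusted p 0.0102). Its lowest value was in replicate 1 and its highest in replicate 3, which is not the order of the muscle score. Rb1, the retinoblastoma protein, fell by 0.40 (SE 0.09; adjusted p 0.0207). With the muscle covariate these differences were -1.16, -0.96 and -0.33, and in the pair with equal muscle scores -1.21, -0.83 and -0.21. Cdkn1a, the inhibitor p21, differed by -0.49 (SE 0.20; adjusted p 0.157).

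Of 24 p53 targets 1 rose and 2 fell (1.54% and 8.38% of all genes). The 3 calls were 1 without control replicate 2 and without replicate 1 or 3 of week 15, and 5 without week 15 replicate 2. Gdf15, a stress-induced cytokine, measured 5.23, 5.42 and 5.96 in the controls and 6.42, 6.02 and 7.18 at week 15 (difference 1.00, SE 0.26; adjusted p 0.037), but 0.35 with the muscle covariate. Gadd45a, a DNA damage and growth arrest gene, fell by 1.02 (SE 0.17; adjusted p 0.00767), and Ccng1, cyclin G1, by 0.78 (SE 0.18; adjusted p 0.0259). Ccng1 followed the muscle score and differed by -0.25 with the covariate. Among EGFR ligands, receptors and feedback genes only Ereg, the ligand epiregulin, was called of 26, at 4.71, 4.88 and 4.67 against 5.18, 5.76 and 5.93 (difference 0.87, SE 0.17; adjusted p 0.0129). Of 32 immediate early genes, Fosl2, an AP-1 subunit, rose by 0.54 (SE 0.11; adjusted p 0.0173), and differed by 0.40 with the muscle covariate. That list had no call without control replicate 3 or week 15 replicate 3, and 2 without week 15 replicate 1 or 2; the EGFR list had 2 without week 15 replicate 2. No prostanoid gene was called by limma of 25 (4 at an unadjusted p under 0.05). Ptgs2, cyclooxygenase 2, stayed between 3.01 and 3.17 on all 6 arrays, at the dim end of the scale.

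Matrix genes of fibroblasts were lower at week 15. Of 40 collagen and collagen-processing genes 16 were lower and none higher (8.38% of all genes were lower), with a median of -0.50. Col1a2, a chain of type I collagen, measured 12.20, 11.12 and 11.70 in the controls and 10.54, 10.13 and 10.07 at week 15 (difference -1.42, SE 0.25; adjusted p 0.00926). Col3a1, type III collagen, measured 12.53, 11.77 and 12.16 against 11.05, 10.75 and 10.70 (difference -1.32, SE 0.20; adjusted p 0.00521). Col6a3, Col14a1 and Col5a2 fell by 1.27, 1.24 and 1.16, and Plod2, which hydroxylates collagen lysines, by 1.11 (adjusted p 0.00228). The other probe set of Col6a3 differed by -0.31. The week 15 arrays of Col1a2, Col3a1 and Col6a3 lay within a range of 0.5 of each other, with replicate 2 between or below the others.

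Small proteoglycans and matricellular proteins were lower in 16 of 47 cases and higher in 1, Tnn (tenascin N). The shares of all genes were 8.38% and 1.54%, and the list median was -0.43. Ogn, osteoglycin, a small leucine-rich proteoglycan that binds collagen fibrils, measured 9.46, 8.97 and 9.66 in the controls and 7.69, 7.59 and 7.65 at week 15. Its week 15 SD was 0.05, and that of the muscle score was 0.78 in the same arrays. Other lower members of the list varied more, with week 15 SDs of 0.32 for Mfap4 and 0.36 for Omd. For Ogn the difference was -1.72 (SE 0.18), or 3.29-fold lower, with an adjusted p of 0.00221, and 0.022 over the 6 arrays alone. Aspn, asporin, a related proteoglycan, measured 9.18, 8.98 and 8.95 against 7.43, 7.91 and 7.36 (difference -1.47, SE 0.16; adjusted p 0.00221). Postn, periostin, fell by 1.46 (SE 0.36; adjusted p 0.0296), Mfap4, of elastic microfibrils, by 1.42 (SE 0.21; adjusted p 0.00493), Omd, osteomodulin, by 1.24, and Nid1, the basement membrane protein nidogen 1, by 1.22, while its other probe set differed by 0.05.

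The readings of the muscle signal beside the matrix genes were as follows. With the muscle covariate all 16 of the lower collagen genes and 14 of the 16 lower proteoglycan genes kept at least 0.5 of their difference. Ogn differed by -1.74, Col1a2 by -1.52, Col3a1 by -1.39 and Aspn by -1.18, none of them called. In the pair of arrays with equal muscle scores, week 15 differed from control by -1.87 for Ogn, -2.07 for Col1a2 and -1.27 for Aspn. Control replicate 1 was the brightest control for Col1a2, Col3a1 and Aspn, and the collagen list score was 8.74, 8.37 and 8.70 in the controls. There 34 of 40 collagen genes and 38 of 47 proteoglycan genes were lower at week 15, against 8313 of all genes. Only 2 of the 16 lower collagen genes had the order of the muscle score across the week 15 arrays. The count of 16 collagen genes was 11 without control replicate 3 and 5 over the 6 arrays alone, and the 17 calls among proteoglycans were 10 without week 15 replicate 3, without control replicate 3 or without control replicate 1, and 8 over the 6 arrays.

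**Figure D3:**
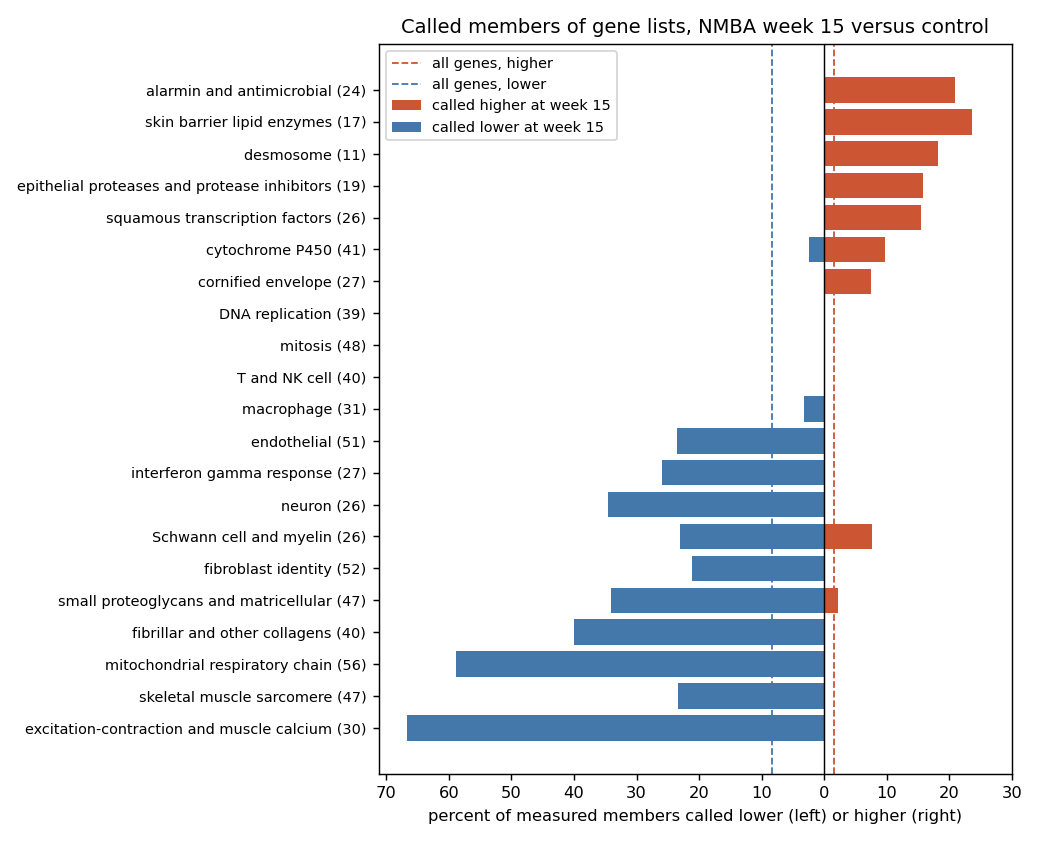
Percent of the measured members of 21 gene lists (number measured in brackets) that were called lower (left, blue) or higher (right, red) at week 15 by limma on 12 arrays; dashed lines mark the share of all genes, 8.38% lower and 1.54% higher. Epithelial lists extend only to the right apart from the P450 list, and muscle, matrix and nerve lists mainly to the left.

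Some genes that identify fibroblasts, and some signals exchanged in the stroma, were lower, and part of them ran in the order of the muscle score. Of 52 fibroblast identity genes 11 were lower and none higher (8.38% of all genes were lower). C1qtnf3, a secreted protein of mesenchymal cells, measured 7.98, 8.04 and 7.88 against 6.72, 6.89 and 6.62 (difference -1.22, SE 0.14; adjusted p 0.00221, and 0.0164 over the 6 arrays). Pdgfra, the fibroblast receptor for platelet-derived growth factor, fell by 1.16 (SE 0.23; adjusted p 0.0154). Igfbp5 and Prrx1, both also expressed in muscle tissue, fell by 1.29 and 1.28 but differed by -0.40 and -0.34 with the muscle covariate, and other probe sets differed by -1.14 to -0.29 for Igfbp5 and by -0.33 for Prrx1. Igf1 fell by 1.09 (SE 0.27; adjusted p 0.0312) and Islr by 1.00 (SE 0.20; adjusted p 0.0136). The fibroblast count was 5 without control replicate 3, 6 without week 15 replicate 3 and 7 without control replicate 1.

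Of 64 growth factor and Wnt genes 9 were lower and 1, Pdgfd, was higher (8.38% and 1.54% of all genes). Nog, the BMP inhibitor noggin, fell by 1.14 (SE 0.21; adjusted p 0.0121), Fgf1 by 1.04, Vegfb by 0.97, Tgfb3 by 0.94, Fstl1 by 0.84 and Fgfr1 by 0.76. Other probe sets of Fgf1 differed by -0.35 to 0.16. Of these 9 lower genes 6 had the order of the muscle score, and the count of 10 calls was 2 without control replicate 3, 3 without week 15 replicate 3, 4 without control replicate 1 and 5 without control replicate 2. Matrix proteases and their inhibitors were lower in 8 of 36 cases. Mmp2, gelatinase A, fell by 1.18 (SE 0.30; adjusted p 0.0345), Reck, which restrains membrane-bound metalloproteinases, by 1.15 (SE 0.17; adjusted p 0.00484), and Serpinf1, pigment epithelium-derived factor, by 1.03 (SE 0.22; adjusted p 0.0192). The other probe set of Mmp2 differed by 0.22. Plat, Ctsh and Ctsk fell by 0.85, 0.79 and 0.74. The protease count was 2 without week 15 replicate 3, 3 without control replicate 3, 4 without control replicate 1 and 5 without control replicate 2.

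Striated muscle genes headed the ranking of falls. Myod1, the regulator that commits cells to the muscle lineage, measured 6.87, 7.77 and 6.98 in the controls and 5.48, 5.57 and 4.63 at week 15. It fell by 1.98 (SE 0.27; adjusted p 0.00354), or 3.95-fold, and differed by -1.30 in the pair of arrays with equal muscle scores. Myoz2, calsarcin 1 of the slow-fiber Z-disc, measured 10.86, 11.67 and 11.04 against 9.05, 10.78 and 8.32 (difference -1.81, SE 0.47; adjusted p 0.037). Trim63, the ubiquitin ligase MuRF1 of muscle atrophy, measured 8.75, 9.95 and 8.95 against 7.72, 8.31 and 6.32 (difference -1.77, SE 0.41; adjusted p 0.0244). In all 3 genes week 15 replicate 3 was lowest. With the muscle covariate Myod1 differed by -1.29, Myoz2, a member of the score, by -0.31 and Trim63 by -0.43.

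Ank2, ankyrin B, measured 7.08, 7.19 and 7.30 in the controls and 5.62, 5.86 and 4.82 at week 15 (difference -1.76, SE 0.21; adjusted p 0.00239). The other probe sets of this gene differed by 0.00 to 0.18. Fndc5, the precursor of irisin, measured 9.72, 10.08 and 10.02 against 8.19, 9.05 and 7.35, and Mrln, myoregulin, a small inhibitor of the sarcoplasmic calcium pump, 8.90, 9.67 and 9.14 against 7.64, 8.37 and 6.49. Both differed by -1.74. Palldl1 measured 5.92, 6.58 and 6.35 against 4.59, 5.45 and 3.71, Amot, angiomotin, 9.50, 10.19 and 9.56 against 8.03, 9.11 and 7.08, and Mamdc2, a matrix protein, 9.47, 10.13 and 9.61 against 7.91, 8.66 and 7.62. Each of these 6 genes had the order of the muscle score at week 15. The other 10 of the 20 largest falls, between -1.67 and -1.61, were Trdn (triadin of the calcium release unit), Arpp21, Ky, Grb10 (an adaptor that restrains insulin signaling), 2310002L09Rikl, Abcd2, Ppp1r3a (which targets a phosphatase to muscle glycogen), Art3, Limch1 and Mlip. Grb10 had 2 other probe sets that differed by -0.22 and -0.18, and those of Arpp21 and 2310002L09Rikl differed by -1.11 to -0.68 and -1.18 to -0.78.

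Upstream sequences of 2 leading rises and 2 leading falls show what letters precede their starts, since the falls include muscle genes that moved together. They are the first 2 genes of each ranking that the RefSeq promoter table (build GRCr8) holds, each with the 250 bases before the annotated start, 5′ to 3′ on the gene's strand. S100a9 lies at chr2:178490623-178490872, Sprr2d at chr2:180566283-180566532 and Myoz2 at chr2:213852779-213853028, all on the minus strand, and Trim63 at chr5:151816986-151817235 on the plus strand. Capitals mark CANNTG, the E-box core read by basic helix-loop-helix factors such as the MyoD family, and the TATA box letters TATAAA, each searched on both strands. The form CAGCTG, which CANNTG includes, was also counted on its own.
S100a9: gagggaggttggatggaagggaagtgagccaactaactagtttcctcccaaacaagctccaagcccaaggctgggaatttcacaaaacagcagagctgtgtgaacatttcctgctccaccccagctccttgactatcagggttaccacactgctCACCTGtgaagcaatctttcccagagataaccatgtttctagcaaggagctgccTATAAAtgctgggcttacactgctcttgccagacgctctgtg
Sprr2d: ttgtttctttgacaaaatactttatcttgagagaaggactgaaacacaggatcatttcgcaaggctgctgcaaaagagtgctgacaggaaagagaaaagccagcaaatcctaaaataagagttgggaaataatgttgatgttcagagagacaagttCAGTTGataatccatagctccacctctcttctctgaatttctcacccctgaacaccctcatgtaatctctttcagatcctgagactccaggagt
Myoz2: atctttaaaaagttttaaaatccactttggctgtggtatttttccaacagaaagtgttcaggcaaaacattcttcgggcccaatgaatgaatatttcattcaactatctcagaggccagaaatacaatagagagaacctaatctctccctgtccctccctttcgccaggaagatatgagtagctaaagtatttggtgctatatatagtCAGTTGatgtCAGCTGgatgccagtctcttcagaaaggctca
Trim63: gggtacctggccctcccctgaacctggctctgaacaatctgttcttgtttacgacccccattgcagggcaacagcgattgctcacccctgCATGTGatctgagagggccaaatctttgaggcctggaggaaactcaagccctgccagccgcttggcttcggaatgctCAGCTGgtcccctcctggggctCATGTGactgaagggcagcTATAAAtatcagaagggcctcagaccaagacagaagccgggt

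The S100a9 stretch holds 1 CANNTG and a TATAAA that begins 42 bases before the start. Myoz2 holds 2 CANNTG, 1 of them CAGCTG, and Trim63 holds 3, 1 of them CAGCTG, with a TATAAA 42 bases before the start. Over all 27457 promoters of this length in the table, 65.2% held CANNTG, 11.9% CAGCTG and 13.1% TATAAA. Among the 20 largest falls, 18 had an entry, of which 11 (61.1%) held CANNTG, 4 (22.2%) CAGCTG and 5 (27.8%) TATAAA. Among the 20 largest rises, 14 had an entry, of which 9 (64.3%) held CANNTG, 2 (14.3%) CAGCTG and 3 (21.4%) TATAAA. Of all lower genes, 988 had an entry, of which 57.5% held CANNTG, 15.7% CAGCTG and 9.11% TATAAA, so that the TATAAA share lay below that of all promoters here and above it among the 20 largest falls. Of 163 higher genes 62.6% held CANNTG, 15.3% CAGCTG and 11.7% TATAAA. These are descriptions of letters in a window and not of bound factors.

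Lists of muscle genes by function are given by their counts, and the lists were not tested against each other. Of 47 sarcomere genes 11 were lower and none higher (8.38% of all genes were lower), with a median of -1.04. Of 30 excitation-contraction and calcium genes 20 were lower and none higher, with a median of -1.30. Besides Myoz2, the lower sarcomere genes included Smpx (-1.52), Lmod3, a thin filament nucleator (-1.46), Myot, myotilin of the Z-disc (-1.45), Myoz3 (-1.43) and Myom1, myomesin of the M-band (-1.39). Other probe sets of Lmod3 and Myoz3 differed by -0.44 and -0.71. Trdn measured 10.49, 11.31 and 10.56 in the controls and 9.04, 10.14 and 8.17 at week 15 (difference -1.67, SE 0.37; adjusted p 0.0199). Popdc3 fell by 1.43, Hrc, a calcium-binding protein of the sarcoplasmic reticulum, by 1.42, Cav3, caveolin 3, by 1.40, and Ryr1, the calcium release channel, by 1.38. Jsrp1, a junctional protein of the reticulum, also fell by 1.38. The excitation-contraction count was 1 without control replicate 2, 4 without control replicate 3, 7 without week 15 replicate 3 and 0 over the 6 arrays alone, and the sarcomere count was 0, 1, 3 and 0. Without week 15 replicate 2, the array with the most muscle signal of its group, 26 excitation-contraction and 38 sarcomere genes were called; without week 15 replicate 1 the counts were 10 and 2, and without control replicate 1 they were 13 and 4.

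Slow-fiber genes were lower in 4 of 15 cases and fast-fiber genes in 1 of 17 (8.38% of all genes were lower). The fast-fiber count is near that share, and the difference between the lists was not tested. All 17 fast-fiber genes were below 0, and in 12 of them the groups did not overlap (17.4% of all genes). Without week 15 replicate 2 the slow and fast counts were 10 and 14, without control replicate 2 or control replicate 3 they were 1 and 0, and without week 15 replicate 3 they were 2 and 1. Among slow genes, Atp2a2, the calcium pump SERCA2, fell by 1.25 (SE 0.16; adjusted p 0.00275), Casq2, calsequestrin 2, by 1.16, and Mb, myoglobin, by 0.88. Atp2a2 measured 11.68, 12.23 and 12.07 in the controls and 10.83, 10.98 and 10.41 at week 15, and other probe sets of the gene differed by -0.11 to 0.21. Ampd1, the adenosine monophosphate deaminase of fast fibers, fell by 1.41 (SE 0.32; adjusted p 0.0226). Myh2, the myosin of fast oxidative fibers, measured 12.50, 13.25 and 13.52 against 11.89, 12.41 and 9.77 (difference -1.73, SE 0.52; adjusted p 0.0628). Its spread came mainly from week 15 replicate 3, and with the muscle covariate the difference was 0.00. Myh4 and Casq1 differed by -1.33 (adjusted p 0.105) and -1.05 (adjusted p 0.0814).

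Muscle energy genes were lower in 17 of 39 cases, myogenic regulators in 8 of 26 and genes of embryonic or denervated muscle in 8 of 24. Of all genes 8.38% were lower. Cox8b, a muscle subunit of cytochrome oxidase, fell by 1.58, Ckmt2, mitochondrial creatine kinase, by 1.43, Prkag3, an AMPK subunit, by 1.35, Ldhb by 1.32 and Fabp3, the muscle fatty acid-binding protein, by 1.28. Beside Myod1, the regulators Myf6, Six4, Myog and Mef2c fell by 1.60, 1.54, 1.53 and 1.36. Chodl, chondrolectin, fell by 1.53 (SE 0.18; adjusted p 0.00221) and still differed by -0.99 with the muscle covariate. Beside Trim63, the third list held Capn3 (-1.44), Myl4, the embryonic light chain (-1.41), and the acetylcholine receptor subunits Chrnb1 (-1.32), Chrna1 (-1.23) and Chrne (-0.73). The other probe set of Chrnb1 differed by 0.14. All 17 lower energy genes and all 8 lower regulators had the order of the muscle score. The energy count was 3 without control replicate 2 and 4 without control replicate 3, the regulator count 3 in both cases, and the denervation count 1 in both cases. Without week 15 replicate 2 these counts were 29, 13 and 8, without week 15 replicate 3 they were 8, 6 and 1, and without week 15 replicate 1 they were 9, 7 and 3.

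**Figure D4:**
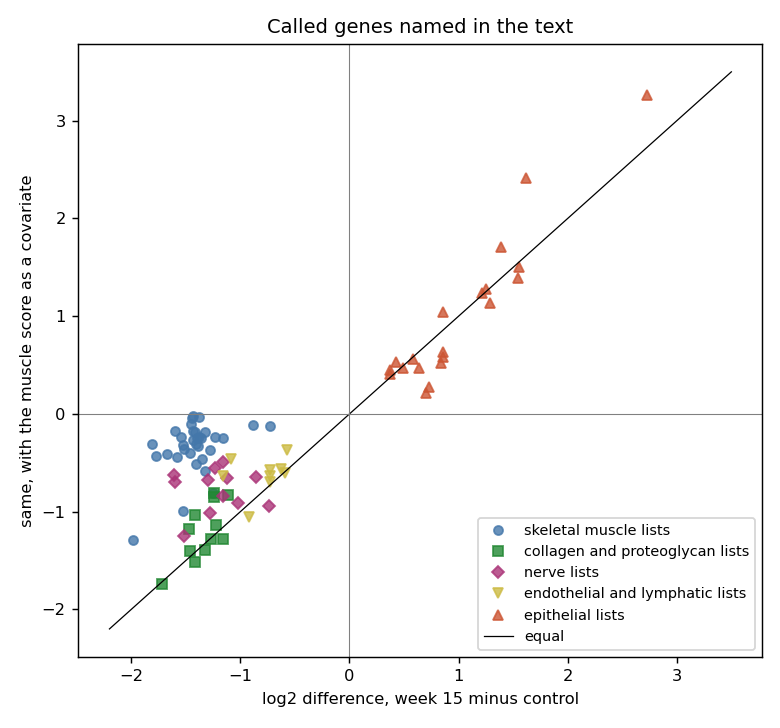
Log2 difference between week 15 and control for called genes named from 5 classes of lists (x axis), against the same difference with the muscle score as a covariate (y axis); each point is a gene and the line marks equal values. Most muscle genes lie near 0 on the y axis. The sarcomere genes among them are members of the score, whose mean difference the covariate removes by construction. Ogn (-1.72 and -1.74), Col1a2 (-1.42 and -1.52) and S100a9 (2.73 and 3.26) lie near or beyond the line.

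Smooth muscle genes were lower in 5 of 26 cases and higher in none (8.38% of all genes were lower). The list median was -0.34, and -0.48 with the muscle covariate. The contractile markers Myh11, Actg2, Cnn1 and Acta2 did not pass the test. Myh11, smooth muscle myosin, measured 12.26, 11.80 and 12.84 in the controls and 12.11, 11.66 and 12.25 at week 15 (difference -0.29; adjusted p 0.608), and Actg2, Cnn1 and Acta2 differed by -0.23, -0.34 and -0.18. The lower members were Casq2, Synpo2 (-1.15), Synm (-0.87), Lmod1 (-0.87) and Smtn (-0.75), of which Casq2, Synpo2 and Synm are also striated muscle genes. Other probe sets differed by -0.81 to -0.21 for Synpo2, -0.13 to 0.23 for Synm and -0.19 for Smtn. The count was 0 without control replicate 2, without control replicate 3 or without week 15 replicate 3, 3 without week 15 replicate 1 and 8 without week 15 replicate 2. Of 12 pericyte genes Abcc9, a potassium channel subunit, fell by 0.84 and Cspg4, the proteoglycan NG2, by 0.55, with differences of -0.48 and -0.27 under the muscle covariate. The pericyte count was 0 without control replicate 3 and 1 without week 15 replicate 1 or 3.

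Some nerve genes were lower and most were not called. Of 26 neuron genes 9 were lower, 17 were not called and none was higher (8.38% of all genes were lower), with a median of -0.22. Of 26 Schwann cell and myelin genes 6 were lower, 2 higher and 18 not called, with a median of -0.06 and 12 differences above 0. Ret, the receptor for GDNF on enteric neurons, measured 5.16, 5.54 and 5.53 in the controls and 4.44, 4.38 and 4.36 at week 15 (difference -1.02, SE 0.17; adjusted p 0.00797, and 0.0401 over the 6 arrays). Vip, the relaxing transmitter of enteric nerves, measured 6.5, 6.95 and 7.64 against 5.48, 5.98 and 4.84 (difference -1.60, SE 0.34; adjusted p 0.0186). Vip followed the muscle score, with -0.70 under the covariate, while Ret did not (-0.91). Other probe sets of Ret differed by -0.30 to -0.13. Gap43, of growing axons, fell by 0.86 (SE 0.13; adjusted p 0.00521), Prph, peripherin, by 1.12, Stmn2 by 1.16 and Scg2, secretogranin 2, by 1.23. The other probe set of Gap43 differed by 0.03. The neuron count was 2 without control replicate 3 or without week 15 replicate 3, and 4 without control replicate 2.

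S100b, a calcium-binding protein of Schwann cells, was even within groups, at 8.40, 8.38 and 8.31 in the controls and 6.72, 7.08 and 6.74 at week 15. It fell by 1.52 (SE 0.18; adjusted p 0.00239, and 0.0164 over the 6 arrays), and differed by -1.25 with the muscle covariate and -1.32 in the pair with equal muscle scores. Plekhb1 fell by 1.30, Scn7a, a sodium channel of glia, by 1.28, Pmp22, of compact myelin, by 1.16 and Gpm6b by 0.74; the other probe set of Pmp22 differed by -0.38. Art3, counted in this list, fell by 1.61 and is strongly expressed in muscle. Cnp, of myelin, and Gjb1, connexin 32, were the members that rose. The Schwann cell count was 5 without week 15 replicate 3 or without control replicate 3. Of 7 genes of the interstitial cells of Cajal, the pacemakers of the gut wall, Etv1 fell by 1.10 (SE 0.17; adjusted p 0.00515) and Prkcq by 1.11 (SE 0.26; adjusted p 0.0262), with -0.83 and -0.28 under the muscle covariate. Other probe sets of Etv1 differed by -0.96 to -0.32, and 1 of the 2 calls was lost without control replicate 2 or control replicate 3.

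Vessel genes were lower in 12 of 51 endothelial and 3 of 10 lymphatic cases, with none higher (8.38% of all genes were lower). Mmrn1, multimerin 1 of lymphatic vessels, measured 8.13, 8.02 and 7.73 in the controls and 7.10, 6.92 and 7.11 at week 15 (difference -0.92, SE 0.11; adjusted p 0.00221, and 0.0426 over the 6 arrays). Lyve1, the hyaluronan receptor of lymphatics and some macrophages, and Ccl21, the chemokine that draws dendritic cells into them, both fell by 0.73 (adjusted p 0.0382 and 0.0183). Clec14a, Emcn and Icam2 of blood endothelium fell by 0.73, 0.63 and 0.57, the lymphocyte and endothelial GTPase gene Gimap4 by 0.59, and Vcam1, an adhesion molecule, by 1.16. The other probe set of Icam2 differed by -0.06. Fabp4 fell by 1.09 and followed the muscle score. The pan-endothelial markers Pecam1 and Vwf differed by -0.29 (adjusted p 0.215) and -0.02 (adjusted p 0.953). Only 1 of the 12 lower endothelial genes had the order of the muscle score, and 11 of them kept at least 0.5 of their difference with the covariate. The endothelial count was 3 without week 15 replicate 3, without control replicate 3 or without control replicate 1, and the lymphatic count was 1 without week 15 replicate 3 or without control replicate 1 and 5 without week 15 replicate 1.

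Of 27 interferon gamma genes 7 were lower and none higher, and of 31 type I interferon genes 3 were lower and none higher. The second count is near the share of all genes that were lower, 8.38%. Cxcl9, a chemokine for T cells, measured 6.86, 6.53 and 6.71 in the controls and 5.63, 5.75 and 5.21 at week 15 (difference -1.17, SE 0.16; adjusted p 0.00386, and 0.0426 over the 6 arrays). Psmb9, an immunoproteasome subunit, fell by 0.60 (SE 0.14; adjusted p 0.0217), Gbp4, a GTPase, by 0.68 and Igtp by 1.09, whose other probe set differed by -0.47. The class I histocompatibility genes RT1-S3 and RT1-T24-4 fell by 0.86 and 0.78; probe sets of such related genes may share targets. Usp18, Ifi44 and Ifi27 of the type I list fell by 0.61, 0.59 and 0.33. All 10 kept at least 0.5 of their difference with the muscle covariate. The interferon gamma count was 2, and the type I count 0, without control replicate 3 or without week 15 replicate 3. The first was 4 without control replicate 1, and the second 1 without control replicate 2 or week 15 replicate 2.

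Immune cell lists gave few calls. None of 40 T and NK cell, 16 B and plasma cell, 22 dendritic cell and MHC class II, 19 mast cell and 33 epithelial cytokine genes was called by limma, against 9.92% of all genes in either direction. In the same order, 3, 3, 3, 0 and 10 genes had an unadjusted p under 0.05. Cd3e, of the T cell receptor complex, differed by 0.41 (SE 0.29; adjusted p 0.401), Ms4a1, CD20 of B cells, by 0.47 (SE 0.15; adjusted p 0.0707), and Cpa3, the mast cell carboxypeptidase, by -0.32 (SE 0.20; adjusted p 0.337). Ccl20, an epithelial chemokine, measured 7.67, 7.25 and 7.12 against 8.28, 7.77 and 8.23 (difference 0.75, SE 0.24; adjusted p 0.0771). Of 31 macrophage genes only Lyve1 was called. Control replicate 1 stood above the other controls in several macrophage genes, with Adgre1, F4/80, at 5.55 against 4.51 and 4.54. Without week 15 replicate 1 the macrophage count was 7, and without any other of the 6 arrays it was 0. Without week 15 replicate 1 or 2 the cytokine count was 2, and without control replicate 1 the T and NK cell count was 2.

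Respiratory chain genes were lower in 33 of 56 cases and higher in none (8.38% of all genes were lower), with a median of -0.43. Cox5a, of cytochrome oxidase, measured 8.29, 8.43 and 8.46 in the controls and 7.72, 7.40 and 7.26 at week 15 (difference -0.93, SE 0.19; adjusted p 0.0152). Sdhb and Sdhc of complex II fell by 0.65 and 0.57, Ndufs1 of complex I by 0.65, Uqcrfs1 of complex III by 0.62 and Atp5f1c of the ATP synthase by 0.57. The count depended on single arrays: it was 1 without week 15 replicate 3, 2 without control replicate 2, 4 without control replicate 3, 6 without week 15 replicate 1, 16 without control replicate 1 and 49 without week 15 replicate 2. Of the 33 lower genes 22 kept less than 0.5 of their difference with the muscle covariate, and 18 had the order of the muscle score.

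Lipid and oxygen genes were mixed, where 1.54% of all genes were higher and 8.38% lower. Of 23 adipocyte genes 1 was higher and 5 lower. Of 25 cholesterol genes 2 were higher and 1 lower, as were 2 and 1 of 24 fatty acid synthesis genes. Of 36 hypoxia and glycolysis genes 2 were higher and 4 lower. The 1 lower gene of 22 clock genes is near the share of all genes. In the adipocyte list Plin2, Lpl, Fabp4, Plin4 and Plin5, all also expressed in muscle or endothelium, fell by 0.98 to 1.31, while Cidea, a lipid droplet protein, rose by 0.97 (SE 0.24; adjusted p 0.0296). All 5 lower genes had the order of the muscle score, and none kept 0.5 of its difference with the covariate, where their median went from -1.09 to -0.42. The other probe set of Plin2 differed by 0.18, and the 6 calls of the list were 2 without control replicate 2 or control replicate 3 and 3 without week 15 replicate 3. The fat-defining genes Adipoq and Plin1 lay between 3.89 and 4.37. Srebf1, the regulator of lipid synthesis, and Fdps, of the sterol pathway, each rose by 0.45 (adjusted p 0.0172 and 0.0335), and Scd, stearoyl-CoA desaturase, by 0.56 (SE 0.11; adjusted p 0.0128). Insig2 and Fads1 fell by 0.48 and 0.83, with -0.05 for the other probe set of Insig2. The 3 calls of the cholesterol list were 0 without control replicate 2, 1 without control replicate 3 or week 15 replicate 3, and 5 without control replicate 1 or week 15 replicate 1. Slc2a1, the glucose transporter GLUT1, rose by 0.78 (SE 0.22; adjusted p 0.0453) and Car9, carbonic anhydrase 9, by 0.36, whereas Bnip3, Egln3, P4ha1 and Aldoa of the same hypoxia and glycolysis list fell by 1.29, 0.68, 0.55 and 0.51. Under the muscle covariate they differed by 0.40, 0.46, -0.35, -0.55, -0.71 and -0.07 in the order named, and the 6 calls were 2 without control replicate 2 or week 15 replicate 3, 3 without control replicate 3 and 10 without week 15 replicate 2. Nr1d2, a nuclear receptor of the clock, fell by 0.62 (SE 0.14; adjusted p 0.0217), with other probe sets at -0.45 to -0.05. It was the only call of 22 clock genes, which was 0 without replicate 1 or 2 of the controls and without week 15 replicate 3, and 4 without week 15 replicate 2. Hbb, beta globin of red cells, measured 9.55, 9.54 and 8.76 against 8.12, 8.07 and 8.32 (difference -1.12, SE 0.18; adjusted p 0.00767) and ran against the order of the muscle score.

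The genes that moved most at week 15 were not at that level at the other stages. The 3 comparisons with control share the same 3 control arrays, so week 15 was also set against weeks 6 and 29 directly. Of 14217 genes, 43.9% were called between weeks 15 and 6 and 43.6% between weeks 15 and 29, where the muscle score was 12.02 ± 0.06 and 11.84 ± 0.11 against 10.41 ± 0.78 and the GAPDH 3′ to 5′ difference 0.11 ± 0.04 and 0.17 ± 0.04 against 0.40 ± 0.19 (SD, n = 3). The part of these 2 measures in the differences was not tested. S100a9 differed from control by -0.70 at week 6, 2.73 at week 15 and -0.29 at week 29, and week 15 exceeded week 6 by 3.43 (SE 0.43; adjusted p 0.000141). Sprr2d differed from control by -0.79, 1.39 and -1.67 in that order. Ogn differed by -0.09, -1.72 and 0.02, and Myod1 by 0.70, -1.98 and 0.66. Of the 20 genes with the largest rises and falls, 10 each, all were called against week 29 and all but Hoxc8 (0.85, SE 0.32, adjusted p 0.056) against week 6. These genes were chosen for their week 15 difference from control. The same week 15 arrays enter these contrasts, so the calls depend in part on that choice.

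**Figure D5:**
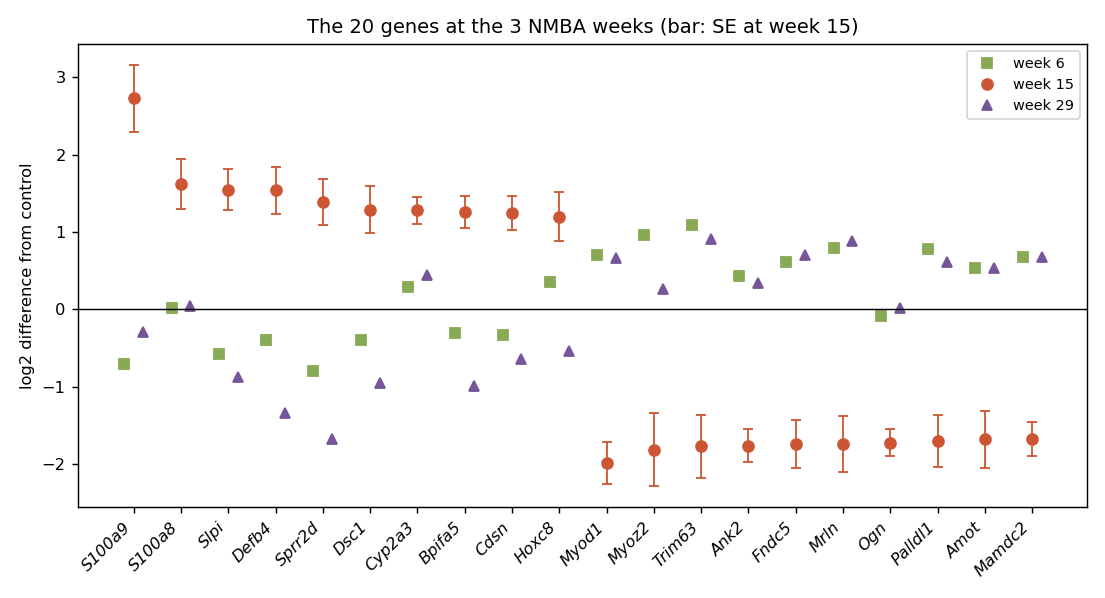
Log2 difference from control at weeks 6, 15 and 29 for the 10 largest rises and 10 largest falls of week 15 (bars, SE at week 15); the 3 weeks share the control arrays, and the genes were chosen at week 15. At weeks 6 and 29 most of the rises lie near or below 0 and the muscle genes lie above 0, and Ogn lies at -0.09 and 0.02.

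Some of the genes named above were below control at each of the 3 weeks; how many genes of the array were so was not counted. The 3 comparisons share the control arrays, so their agreement is not independent. Cdkn2a differed from control by -0.89 at week 6 (adjusted p 0.0184), -0.81 at week 15 and -1.08 at week 29 (adjusted p 0.00465), and week 15 differed from week 6 by 0.08 (adjusted p 0.704). Clec14a differed by -0.64, -0.73 and -1.12, Gimap4 by -0.52, -0.59 and -0.73, and Psmb9 by -0.72, -0.60 and -1.20, each called at every week. Cxcl9 differed by -0.69, -1.17 and -1.0, also called at every week. Gadd45a, Gstm5 and Hbb went the other way, with week 6 differences of 0.90, 0.81 and 1.32 and week 29 differences of 0.93, 0.73 and 1.21 against -1.02, -0.96 and -1.12 at week 15.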

How the data were processed

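Total RNA of 12 rat esophagus samples was hybridised to Affymetrix arrays, 1 per sample. The deposited values are log2 signals per probe set. Per the submitters' processing notes, the authors used Affymetrix Expression Console; the sources used here do not say how signals were summarised or filtered. The log2 scale was read from the values. Without scanner files, signal over background was not examined, and precision is limited by the number of arrays. Values were used as deposited, with no filter on dim signal.

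The 57 array controls among 31099 probe sets were set aside. By the platform annotation, 20826 of the rest had 1 symbol, 436 had several and 9780 were not listed, and the gene identifier of 20758 single-symbol probe sets was found in the RefSeq gene table. The brightest probe set over the 12 arrays stood for each of 14217 genes. No 2 arrays were identical (7 to 47 equal values in a pair).

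A limma 3.58.1 model of the 4 groups (lmFit and eBayes, R 4.3.3, two-sided) used 12 arrays and left 8 residual degrees of freedom, with Benjamini-Hochberg adjustment over 31042 probe sets and a threshold of 0.05. On simulated data for week 15 versus control with 31042 probe sets, the recovery was 62%, 90%, 94% and 98% of the probe sets changed 1.5-, 2-, 3- and 4-fold (50 each), with 8 false among 180 calls. The simulation drew noise for each probe set separately, with the same spread in all 4 groups. The week 15 arrays had the largest median SD of the groups (0.164), so these rates may not hold for the real comparison. Alternatives were the 6 arrays alone, array weights per group, a replicate block, median subtraction, quantile normalization, a mean signal of at least 6, trend and robust eBayes, a 2-fold minimum, the muscle score or the GAPDH 3′ to 5′ difference as a covariate, gene means over probe sets, and leaving out each array.

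Named genes were the 20 largest rises and 20 largest falls among called genes with non-overlapping groups (provisional names skipped), up to 6 called members of each of 55 gene lists, up to 3 values where fewer than 2 were called, and Mki67, Ptgs2, Krt4, Krt13, Krt5, Krt14, Cdkn1a, Ccnd1, Cyp2a3, Acta1 and Myh2. Tissue markers, and Tnn, Pdgfd, Cnp and Gjb1, the few rises in their lists, were named after their values were seen. The comparison, the lists and the members were chosen with earlier results of these data known. Promoter sequences are from RefSeq, build GRCr8.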

Additional observations from a re-analysis of the deposited data

Results flagged for a closer look

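Week 15 differed from another NMBA stage, by limma on 12 arrays with an adjusted p under 0.05, for every one of the 10 largest rises and 10 largest falls against week 29, and for all but Hoxc8 against week 6. The genes were chosen for their week 15 difference from control, and the week 15 arrays enter both contrasts. Against week 6 the log2 difference was 3.43 for S100a9, 1.60 for S100a8, 2.12 for Slpi, 1.93 for Defb4, 2.18 for Sprr2d, 1.68 for Dsc1, 0.99 for Cyp2a3, 1.56 for Bpifa5 and 1.57 for Cdsn. Against week 29 it was 3.02 for S100a9, 1.58 for S100a8, 2.42 for Slpi, 2.88 for Defb4, 3.06 for Sprr2d, 2.24 for Dsc1, 0.84 for Cyp2a3, 2.25 for Bpifa5, 1.89 for Cdsn and 1.74 for Hoxc8. Among the falls, week 15 minus week 6 was -2.68 for Myod1, -2.76 for Myoz2, -2.86 for Trim63, -2.19 for Ank2, -2.36 for Fndc5, -2.53 for Mrln, -1.63 for Ogn, -2.48 for Palldl1, -2.22 for Amot and -2.35 for Mamdc2. Week 15 minus week 29 was -2.64 for Myod1, -2.07 for Myoz2, -2.68 for Trim63, -2.10 for Ank2, -2.45 for Fndc5, -2.62 for Mrln, -1.74 for Ogn, -2.32 for Palldl1, -2.22 for Amot and -2.36 for Mamdc2. The muscle score of week 15 was also below that of both stages, and its part in these differences was not tested.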

How the results depend on the processing

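Calls at week 15 depended on how the spread was estimated and on the muscle signal. Over probe sets the main count was 2455, of which 528 were higher and 1927 lower. The 6 arrays alone gave 135 (7 higher, 128 lower), the muscle covariate 0 (0 higher, 0 lower), a 2-fold minimum 527 (41 higher, 486 lower), and array weights per group 268 higher of 1750. Leaving out 1 array gave 881 to 3057 in all, 112 to 831 higher and 746 to 2226 lower, and a muscle score difference of -1.40 to -0.62. Median subtraction, the GAPDH covariate, trend and robust eBayes, a mean signal of at least 6 and the replicate block kept each count within 1.5 times. Quantile normalization gave 642 higher and 1542 lower, 29.4% higher against 21.5%.

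With the muscle covariate the sign turned for Krt19 (0.98), Krt8 (0.87), Chek2 (-0.07), Gins1 (-0.10), Ttk (-0.20), Nusap1 (-0.05), Nuf2 (-0.10), Mki67 (-0.47), Ptgs2 (-0.02), Krt14 (-0.13), Ccnd1 (-0.16), Myh2 (0.00), Casq1 (0.14), Acta1 (0.14), Usp2 (0.10) and Nr4a1 (0.16), none of them called. Ptgs2 also turned with quantile normalization (-0.00). Leaving out 1 array turned the sign of uncalled genes, over ranges of -0.91 to 0.05 for Krt10, -1.61 to 0.25 for Krt19, -1.76 to 0.05 for Krt8, -0.06 to 0.41 for Csf3r, -0.06 to 0.95 for Fos, -0.11 to 0.32 for Mki67, -0.01 to 0.07 for Ptgs2 and -0.01 to 0.17 for Ccnd1.

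Whether the replicate numbers pair the samples could not be settled, since deviations within a group of 3 arrays are not independent. Of 18 same-numbered pairs 8 had a correlation of deviations over 0.1, and 3 of 12 arrays matched their own number best. Between control and week 15 the correlation was -0.21 for number 1, 0.25 for number 2 and 0.17 for number 3. With the replicate number as a block 2432 probe sets were called, 473 higher and 1959 lower.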

Other observations

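Keratins of simple epithelium set 2 arrays apart across the groups. Krt8 measured 8.93 in control replicate 2 and 7.79 in week 15 replicate 2, against 5.14 to 6.09 in the other arrays of the comparison. Krt19 measured 8.79 and 7.88 in the same arrays, against 5.10 to 6.16. Aqp5, a water channel of glands, was also highest in control replicate 2, at 6.99, and next in week 15 replicate 2, at 5.85. None of the 40 genes of the glandular, ciliated and neighbouring organ list was called by limma between the groups (5 at an unadjusted p under 0.05). Of all genes 9.92% were called in either direction. The source of the Krt8, Krt19 and Aqp5 signal was not tested. Jchain, of antibody-secreting cells, measured 6.5 and 6.84 in week 15 replicates 1 and 2 and 5.16 in replicate 3, against 5.43 to 5.66 in the controls.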
